A study of Mus musculus with 8 samples.

Results

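The rows described here are the 1035 of 54146 rows of a gene count table whose exons lie under a gene on the other strand without covering its exons. A row was taken when its exons overlapped the span of an opposite-strand gene (called its host below), shared fewer than 50 bases with the exons of any such gene, and had a mean count of at least 5 over 8 libraries. Mitochondrial rows were left out. They make up 1.91% of the table, and 6468 rows have such a position at any count. The rows lie in 948 hosts, of which 882 hold 1 row, 54 hold 2 and 12 hold 3 or more.

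The libraries come from ID8, a mouse ovarian cancer line derived from ovarian surface epithelium, in a form that the labels call olaparib-resistant. All groups are of this 1 line and this genotype. Cells were kept for 72 hours with DMSO (the solvent), with olaparib, with EZM8266, or with olaparib and EZM8266 together (the combination), with 2 libraries in each group and no dose in the labels. Olaparib inhibits PARP1 and PARP2, enzymes that mark DNA breaks for repair, and EZM8266 inhibits EHMT1 and EHMT2, the methyltransferases that place mono- and dimethyl marks on lysine 9 of histone H3. Combination replicate 2 carries EZM8267 in its treatment label and was placed by its title. Libraries with EZM8266 carry library numbers 33 to 36 and those without it 41 to 44, so an effect of that numbering cannot be told apart from an effect of EZM8266.

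Most mammalian genes are copied into a long precursor RNA from which introns are cut out and degraded while exons are joined. RNA depleted of ribosomal RNA, rather than selected for poly(A) tails, keeps some of these precursors, so that intron sequence appears in the reads. A fragment was counted for a row when its first read had the orientation of that row, whereas the named library kit is known, as background that the labels do not state, to place the first read opposite to the RNA. In the table itself, rows that share at least 50 bases with an opposite-strand exon took 83.8% to 88.6% of the counts. On this basis a row is read here as RNA copied from the other strand, and a row inside an intron of its host as unspliced RNA of that host, a reading that no separate strand measurement in these files settles. Rmrp, an abundant non-coding RNA, had between 1.04% and 1.68% of the summed counts of its own row and the overlapping Ccdc107 row in its own row, depending on the library. A count in a member row can thus also come from RNA of the row's own gene, and the 2 sources were not separated.

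The depth of the table is low. Libraries had 19743299 to 30329847 fragments, of which 4.54% to 5.40% were assigned, giving 973382 to 1680974 counts. The 1035 rows took 22808 to 36935 counts a library. A count of 3, used as the floor, corresponds to 1.78 to 3.08 CPM (counts scaled to a library total of 1000000). Read through the markers' own rows, the lists for T cells, B cells, endothelium and leukocytes (Ptprc) summed to 0 to 7 counts a library, the 5 macrophage markers to 93 to 144, the 5 fibroblast markers to 43 to 236 and the 14 markers of ovarian surface epithelium and ID8 to 187 to 643. Rows over marker exons on the other strand exist for few of these genes, and summed to 206 to 378 counts for Krt7, Krt8 and Gata6, 0 to 9 for the macrophage gene Csf1r, 0 to 1 for the fibroblast gene Pdgfra and 0 for the T cell gene Cd3e. B cell, endothelial and leukocyte markers have no such row, so their levels are not measured on that side.

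The label of these rows as intronic held for part of them, and 4 kinds were separated by position. In 563 rows every exon base lay in introns of opposite-strand genes, and these are called wholly intronic. A further 50 rows lay wholly inside a host span and shared 1 to 49 bases with its exons. In 281 rows only part of the exons reached into a host, with a median of 447 bases inside it. The other 141 rows had no intronic base at all, because the median of 29 bases inside the host all lay on a host exon. Of these 141 overlaps, 110 covered the 3′ end of the host, 23 its 5′ end and 8 neither end.

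The bases shared with the host are printed for 6 of these exon overlaps, on the host strand from 5′ to 3′ in mouse build mm10, because they show how little of each row lies on its host. They include the 4 exon-overlap rows among the 10 highest rows, and the Psd and Srrm2 rows with only 4 and 2 shared bases. Capitals mark bases shared with the host exon, and the lower-case bases that follow belong only to the row. For the row with the highest count, Fam57b, the whole of a row exon of 25 bases lay inside an exon of Aldoa, which encodes a glycolytic aldolase (chr7:126797668-126797692, minus strand). The others lie at the 3′ ends of Chchd10 (a mitochondrial protein; chr10:75937723-75937752, plus strand), Usmg5 (a small subunit of ATP synthase; chr19:47083450-47083479, minus strand), Psme1 (a proteasome activator subunit; chr14:55581516-55581545, plus strand), Nfkb2 (an NF-kappaB subunit; chr19:46312087-46312116, plus strand) and Elob (elongin B; chr17:23824712-23824741, minus strand).
Fam57b row over Aldoa: CGCATTGTGGCTCCGGGCAAGGGCA
Gm867 row over Chchd10: ATTAAAAAGTTTACTTTAGACCACAgcctg
Taf5 row over Usmg5: TTATGAACCtggaaaagctggttgtcttta
Emc9 row over Psme1: TAGTTGCCCACCAGcccatgtctttattgt
Psd row over Nfkb2: GCAAttcagagcagttttaatgagggtgga
Srrm2 row over Elob: TTactgcatttctcatttttatttgacaga

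Rows inside a host that touch one of its exons show the junction itself. For the Gm10552 row in Sp140, an interferon-responsive nuclear protein, the first 120 bases from the shared exon end are printed (chr1:85609853-85609972, plus strand). For the Gm15419 row in Col4a2, a chain of basement membrane collagen, the stretch ends in a host exon (chr8:11399627-11399746, plus strand). The Mir6381 row in Gbp2, an interferon-induced GTPase, is printed whole (chr3:142623860-142623946, plus strand). Capitals again mark host exon, and the host intron is in lower case.
Gm10552 row in Sp140: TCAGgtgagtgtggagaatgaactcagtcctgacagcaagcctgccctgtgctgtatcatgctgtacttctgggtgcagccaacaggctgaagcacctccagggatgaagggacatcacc
Gm15419 row in Col4a2: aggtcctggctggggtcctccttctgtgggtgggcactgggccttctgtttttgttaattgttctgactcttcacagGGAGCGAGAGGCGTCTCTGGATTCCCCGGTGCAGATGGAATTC
Mir6381 row in Gbp2: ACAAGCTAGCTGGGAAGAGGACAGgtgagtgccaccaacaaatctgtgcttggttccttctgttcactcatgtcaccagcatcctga

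The Gm10552 and Mir6381 stretches leave the host exon with the letters gt, and the Gm15419 stretch enters the exon after ag, the bases at which most mammalian introns start and end. Over the 104 rows whose exons hold such a boundary of the host, 59 of 67 intron starts (88.1%) had GT on the host strand and 47 of 51 intron ends (92.2%) had AG. These sequences were read from the transcripts of the rows themselves, which were found for all 1035. They place the rows across spliced boundaries of the host as the annotation gives them, and do not show where in the row the counted fragments lay.

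A pair of wholly intronic rows completes the set shown. Gm23935, annotated as a microRNA, is a row of 57 bases in gap 23 of 26 between the merged exons of Zc3h7a (chr16:11144125-11144181, printed on the minus strand). Its whole sequence also occurs, on the strand of the row, in the annotated transcripts of Gm24245 and Gm24270, so its counts are uncertain. Gm43980 is a row of 1612 bases in the first intron of Tra2a, a splicing regulator, and its middle 150 bases are printed (chr6:49255581-49255730, minus strand).
Gm23935 row in Zc3h7a: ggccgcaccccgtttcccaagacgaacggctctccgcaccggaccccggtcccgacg
Gm43980 row in Tra2a: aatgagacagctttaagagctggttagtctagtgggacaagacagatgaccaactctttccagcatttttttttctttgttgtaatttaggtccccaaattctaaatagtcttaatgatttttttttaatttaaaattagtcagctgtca

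Both rows with exon overlap only and wholly intronic rows held large shares of the counts. The 141 exon-overlap rows held 31.4% of the counts of the set although they are 13.6% of its rows, and the 563 wholly intronic rows held 30.6%. Without the Fam57b row, the highest of all, these shares were 23.97% and 33.89%. The 50 rows inside a host with shared bases held 14.7% and the 281 partly inside 23.4%. Median mean counts were 18.25 for exon overlap only, 33.5 for rows inside with shared bases, 11.75 for rows partly inside and 9 for wholly intronic rows. Per kb of row exon, the medians were 3.61, 49.6, 2.11 and 8.60 CPM in the same order, so that rows inside a host with shared bases had the highest median by both measures. The 10 rows with the highest mean held 30.1% of all counts of the set, and 7 of them share bases with a host exon. Of the 36 rows with a mean count of at least 100, 28 share bases and 7 are wholly intronic, whereas 469 of the 1035 rows have a mean count under 10.

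**Figure D1:**
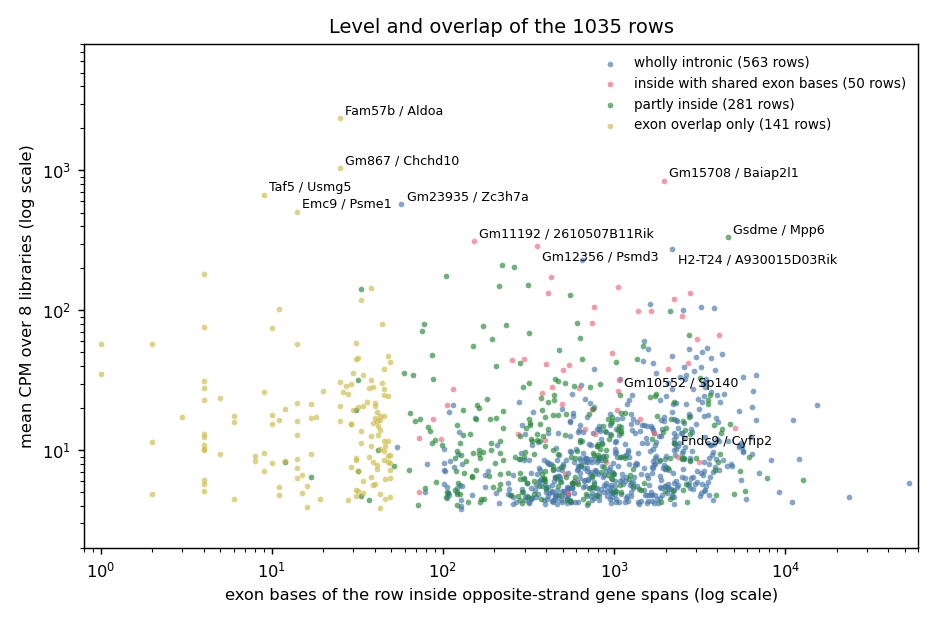
Each point is 1 of the 1035 rows, with the exon bases that lie inside opposite-strand gene spans on the x axis and the mean CPM over 8 libraries on the y axis, both on log scales, and colours for the 4 kinds of position. Among the 10 highest rows, Fam57b, Gm867, Taf5 and Emc9 have 9 to 25 bases inside the host, whereas Gm15708 in Baiap2l1 has 1947. Most wholly intronic rows lie below 100 CPM.

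The Fam57b row had 2512 and 3342 counts in DMSO, 3232 and 3019 in olaparib, 2728 and 2776 for EZM8266, and 2134 and 2539 for the combination. The row of Aldoa, read from the other side, had 30 to 134 counts. For the Gm867 row over Chchd10 the counts were 1080 and 1709, 1519 and 1196, 1355 and 1052, and 1113 and 947 in the same order of groups. All 8 libraries were high for both rows and the groups overlapped, apart from the Gm867 row with EZM8266 against DMSO, where the CPM of 1025 and 1046 lay just below those of 1058 and 1055. The Srrm2 row, with only 2 bases over Elob, had 36 and 145 counts with DMSO, 84 and 50 with olaparib, 81 and 44 for EZM8266, and 71 and 54 for the combination. Srrm2 encodes an abundant spliceosome protein, and what part of the counts of its row comes from its own RNA was not measured.

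Many rows occur in pairs that are each other's host. There are 123 such pairs, and the levels of both rows of a pair can differ widely. The Emc9 row over Psme1 had a mean count of 600.875 and the Psme1 row over Emc9 one of 10.375. Psd read over Nfkb2 had 163 to 282 counts a library, and the Nfkb2 row 18 to 46. The Lgals2 and Cdc42ep1 rows share 38 bases, with a mean count of 171.875 for the Lgals2 row and 15.875 for the Cdc42ep1 row. Rack1 and Trim41 are close to level, at mean counts of 71.375 and 52.875 with 31 shared bases.

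Among rows whose own genes seldom give RNA, a place inside an intron went with counts. The wholly intronic rows are set beside rows with nothing annotated on the other strand, without those within 5000 bases downstream of an opposite-strand gene. Of the rows that are not protein-coding, 444 of 4198 wholly intronic ones (10.6%) reached the minimum of a mean count of 5. Of those with nothing opposite, 150 of 21412 (0.701%) reached it. Processed pseudogenes, copies of spliced RNAs pasted back into the genome and seldom transcribed, reached it in 151 of 1540 wholly intronic rows (9.81%) against 13 of 6908 (0.188%). The same shares were 20.7% and 1.92% for antisense rows, 18.3% and 1.25% for TEC rows (transcripts to be experimentally checked, a provisional annotation class), and 10.1% and 0.895% for lincRNA rows. In protein-coding rows, which have RNA of their own more often, the shares were 23.0% and 13.9%. These are descriptions of the annotation and carry no test.

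**Figure D2:**
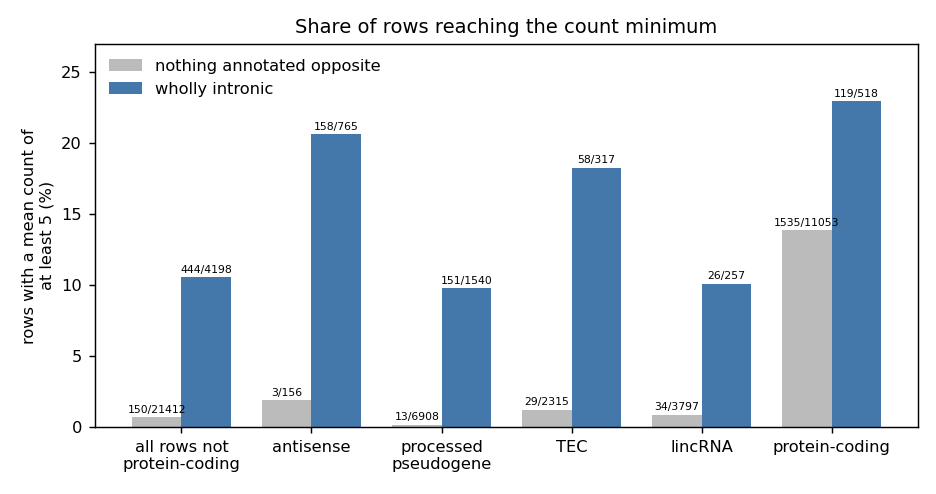
Bars give the percent of rows with a mean count of at least 5 over the 8 libraries, by kind of row, for rows with nothing annotated on the other strand (grey) and for wholly intronic rows (blue), with the numbers of rows above each bar. The blue bar is the higher one in each of the 6 kinds.

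Summing over every row of the class, including those at 0, the wholly intronic rows that are not protein-coding had 2.29 CPM per kb of exon, against 0.246 where nothing is annotated opposite. Without the 10 highest rows of each class the values were 1.92 and 0.177. Median row lengths were 471 and 573 bases. Where the host was protein-coding, 424 of 3279 such rows (12.9%) reached the minimum, and where it was not, 20 of 919 (2.18%). The set as a whole holds 221 antisense rows, 152 processed pseudogenes, 62 TEC, 40 lincRNA, 12 snoRNA, 12 snRNA and 7 miRNA rows beside 485 protein-coding ones, and 844 of the 1035 rows have a protein-coding host.

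Along the host, the wholly intronic rows that are not protein-coding and passed the minimum had a median of 11.2 CPM per kb in the first of 3 equal parts, 8.59 in the middle part and 11.9 in the last. By host length the medians were 13.8 CPM per kb under 50 kb, 9.33 from 50 to 150 kb and 7.52 above. Over all 563 wholly intronic rows, protein-coding ones included, those under 200 bases had a median of 55.9 CPM per kb, those of 200 to under 1000 bases 12.5 and longer ones 4.53, an order on which the count minimum acts, since a short row passes only at a high density. For 173 wholly intronic rows the host also has an opposite row that shares at least 50 bases with its exons. The exon row was the denser in 126 of these 173, with a median ratio of 3.32 (quartiles 0.907 and 13.4), and the levels per kb of both rows had a Spearman rho of 0.11 across the rows, which share hosts and libraries. In 27 of the 173 the exon row has at least 50% of its length over host exons. It was the denser in 24 of these 27, with medians of 115.0 CPM per kb over exons and 6.78 in introns, and a median ratio of 17.3 and a lower quartile of 3.09.

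Some hosts hold several rows of the set. Nf1, the RAS-inhibiting neurofibromin, holds 7 wholly intronic rows over a span of 241920 bases, and 5 of them (AU040972, Omg, Evi2, Evi2b and Evi2a) lie in 1 gap of 59719 bases, number 39 of 59. Omg, Evi2a and Evi2b are known genes nested in this intron on the other strand. The 7 rows ran from 2.94 CPM per kb (Evi2b) to 9.87 (Gm11199), a range of 3.36-fold over the gene. Evi2, Evi2a and Evi2b share exon bases on their own strand, so a fragment there counts for more than 1 of them. Summed over the 7 rows with such fragments repeated, Nf1 had 78 and 98 counts with DMSO, 78 and 120 with olaparib, 70 and 61 for EZM8266, and 47 and 79 for the combination. As CPM these are 76.4 and 60.5, 57.4 and 97.6, 53.0 and 60.7, and 47.3 and 77.0, and every pair of groups overlaps.

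Cenpp, a centromere protein gene, holds the Ecm2, Aspn, Omd and Ogn rows, a cluster of small leucine-rich matrix proteins nested on the other strand. Their summed counts were 47 and 46 with DMSO, 38 and 106 with olaparib, 25 and 34 for EZM8266, and 30 and 46 for the combination. Olaparib replicate 2 was the highest library for each of the 4 rows. The long non-coding models Gm20388 (6 rows) and 1600010M07Rik (4 rows) are also hosts, and whether their rows read them was not tested. Clasp1, which binds microtubule ends, holds 3 rows (2900060B14Rik, Gm22710 and Gm28466, of which the first 2 share 125 bases) with a mean count of 6.625 to 8.875. In the 45 hosts with at least 2 wholly intronic rows, the highest row exceeded the lowest by a median of 1.57-fold per kb, with a highest value of 38.6. That value is Gm26870, whose Gm10722 row had 850 counts in DMSO replicate 1 and 647 in olaparib replicate 2 but 56 to 164 in the other 6 libraries. These 2 libraries also stood apart outside the set. The Gm10800 row had 23746 and 22517 counts in them, against 1182 to 4277 in the other 6. Rows over opposite-strand exons took their lowest shares there, 83.8% and 84.5%. The cause was not tested.

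The set took a share of the counts that varied between libraries, from 1.88% to 2.59%. It held 2.48% and 2.20% of the counts with DMSO, 1.88% and 2.57% with olaparib, 2.32% and 2.56% for EZM8266, and 2.07% and 2.59% for the combination. The lowest and the next to highest share were both in the olaparib group, and all groups overlapped. With EZM8266 the mean was 2.39% ± 0.244 and without it 2.28% ± 0.308 (SD, n = 4 each), a difference of 0.104 points that was smaller than the spread between libraries (two-sided exact permutation p = 0.629). Per 100 counts in rows over opposite-strand exons, the set had 2.96 and 2.53 with DMSO, 2.13 and 3.04 with olaparib, 2.69 and 2.94 for EZM8266, and 2.35 and 2.98 for the combination. The difference in this ratio was 0.0746 (two-sided exact permutation p = 0.8, n = 4 each). A group of 2 against a group of 2 was not tested, since such a test cannot give a small p.

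By kind, wholly intronic rows took 0.842% and 0.667% of the counts with DMSO, 0.518% and 0.867% with olaparib, 0.691% and 0.742% for EZM8266, and 0.583% and 0.822% for the combination. Their mean was 0.710% ± 0.100 with EZM8266 and 0.724% ± 0.163 without (SD, n = 4 each; two-sided exact permutation p = 0.914). The 3 rows in Gm26870 and the Gm23935 row weigh on these shares. The 3 rows held 1237 of the 8890 wholly intronic counts in DMSO replicate 1 and 999 of 10467 in olaparib replicate 2. In the other libraries they held 87 to 250. The Gm23935 row, whose counts are uncertain, had 550 and 1332 with DMSO and 799 and 547 with olaparib. For EZM8266 it had 1078 and 230, and for the combination 742 and 418. The share of this kind without these rows was not computed. For rows inside with shared bases, partly inside and with exon overlap only the exact permutation p-values were 0.229, 0.486 and 0.343, and 0.648 for each after adjustment over the 4 kinds (n = 4 each). The 3 libraries with the highest share of the set (combination replicate 2, olaparib replicate 2 and EZM8266 replicate 2) were also those with the lowest share of counts in the Ccdc107 row, at 9.19%, 8.39% and 8.76% against 10.1% to 12.2% in the others, and the part of this in the shares was not tested.

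**Figure D3:**
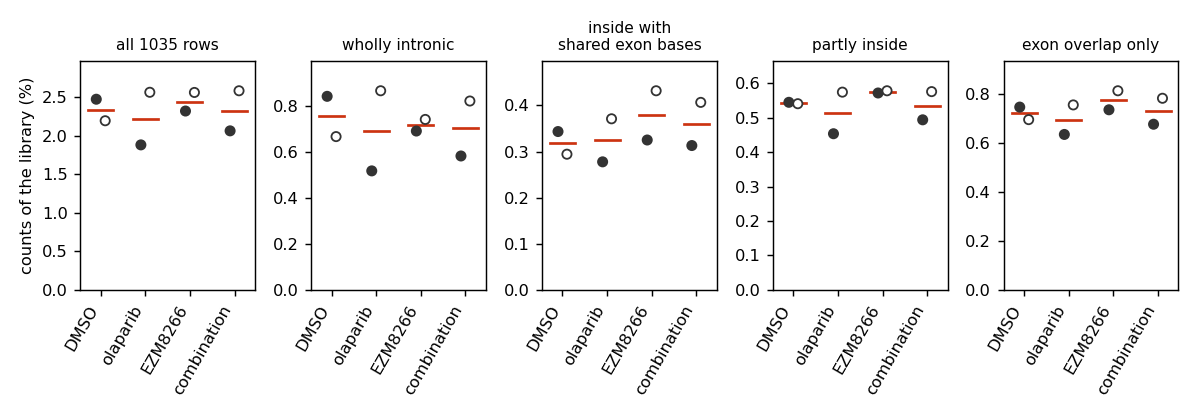
Points give the percent of the counts of a library that fell in the 1035 rows and in each of the 4 kinds of row, by group, with filled points for replicate 1, open points for replicate 2 and a red line at the mean of 2. The groups overlap in the panel of all rows, and the olaparib replicates lie farthest apart, at 1.88% and 2.57%.

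Treatment effects were tested row by row in 1 fit over the whole table with edgeR's quasi-likelihood test, with calls made at a p under 0.05 after Benjamini-Hochberg adjustment. Of the 1035 rows, 697 passed the filter on low counts and 338 did not. Olaparib against DMSO gave 0 called rows of the 697 and 0% among the 6379 rows tested, with 11 rows of the set and 117 of all (1.83%) at an unadjusted p under 0.05. EZM8266 against DMSO gave 0 of the 697, beside 0.204% of all rows, with 20 at an unadjusted p under 0.05 beside 5.72% of all. The combination gave 1 called row against DMSO beside 0.219% of all rows, with 24 at an unadjusted p under 0.05 beside 4.89% of all. It gave 0 against olaparib (0.0941% of all rows, 28 at an unadjusted p under 0.05 beside 3.81% of all) and 0 against EZM8266 (0% of all rows, 11 at an unadjusted p under 0.05 beside 1.54% of all). The 4 libraries with EZM8266 against the 4 without, called the EZM8266 main effect below, gave 2 called rows beside 0.658% of all rows, and 45 at an unadjusted p under 0.05 beside 6.77%. DESeq2 also called 0 in the 4 comparisons at 0.

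Most rows did not move beyond their error. The median log2 fold change of the 697 rows was -0.02 for olaparib, -0.03 for EZM8266 and -0.04 for the combination (all against DMSO), while the main effect had -0.03, beside -0.01, -0.02, -0.02 and -0.02 over all 6379 rows. The median standard error (SE) of a row was 0.46 for olaparib against DMSO and 0.34 for the main effect. Against DMSO, the groups did not overlap in 192 rows for olaparib, 213 for EZM8266 and 224 for the combination, beside 30.8%, 31.9% and 36% of all tested rows. The combination did not overlap with olaparib in 184 rows (32% of all tested rows) and with EZM8266 in 178 (23.9% of all). For the main effect, 29 rows had 4 libraries with EZM8266 wholly above or below the 4 without, beside 5.35% of all rows. As shares of the 697 rows these are 27.5%, 30.6%, 32.1%, 26.4%, 25.5% and 4.16% in the same order, below the table's share in each comparison but the combination against EZM8266.

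**Figure D4:**
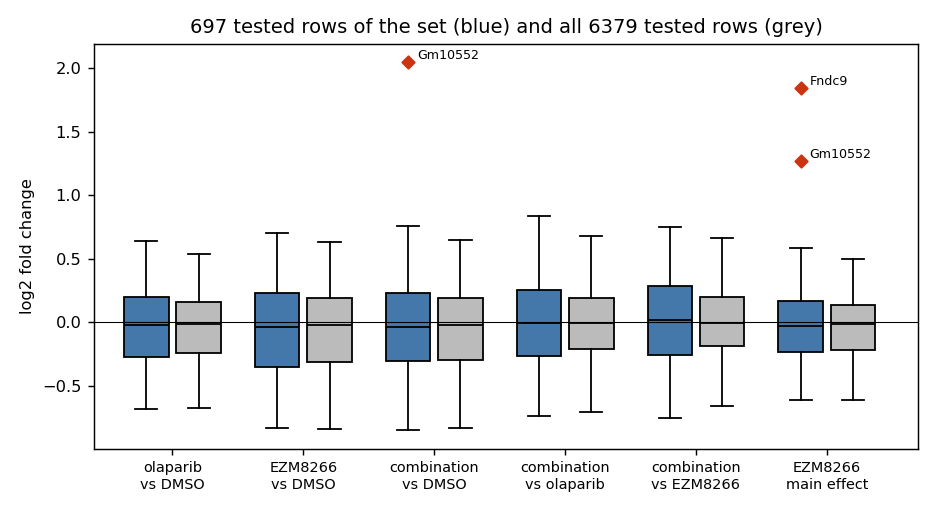
Boxes give the median and quartiles, and whiskers the 5th and 95th percentiles, of the log2 fold change of the 697 tested rows of the set (blue) and of all 6379 tested rows (grey, which include the blue ones) in the 6 comparisons. Red diamonds mark called rows: Gm10552 in the comparison of the combination with DMSO, and both Gm10552 and Fndc9 in the main effect.

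The called row with the clearest order of groups lies in Sp140, which encodes an interferon-responsive nuclear body protein that reads chromatin. The Gm10552 row (chr1:85604085-85611896, minus strand) has 3 exons and 1056 bases, all inside the span of Sp140, of which 4 are shared with a host exon. It had 11 and 19 counts with DMSO, 27 and 25 with olaparib, 33 and 32 for EZM8266, and 45 and 50 for the combination. As CPM the means were 11.3 ± 0.679, 20.1 ± 0.329, 28.4 ± 4.85 and 47.0 ± 2.41 (SD, n = 2 each). The 4 groups did not overlap, with DMSO lowest and the combination highest. The row rose with the combination over DMSO by 2.04 ± 0.30 on the log2 scale (SE; edgeR adjusted p = 0.0123), and for the main effect by 1.27 ± 0.21 (edgeR adjusted p = 0.0127, higher in 4 of 4 libraries with EZM8266 than in any without).

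EZM8266 alone against DMSO gave 1.31 ± 0.31 for Gm10552 (edgeR adjusted p = 0.228) and olaparib alone 0.82 ± 0.32 (edgeR adjusted p = 0.999), and neither passed. A test of the interaction of the compounds gave -0.08 ± 0.41 (edgeR unadjusted p = 0.863). The call against DMSO was lost without either DMSO library (edgeR adjusted p 0.119 and 0.148) or either combination library (0.0779 and 0.0741). The main effect was lost without any 1 of the 4 libraries without EZM8266 (edgeR adjusted p 0.0543 to 0.0698).

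A row over exons of the same host also rose, and it was named after its values were seen. The Gm17017 row shares 877 bases with Sp140 exons and had 21 and 34 counts with DMSO, 25 and 42 with olaparib, 58 and 50 for EZM8266, and 65 and 64 for the combination. Its main effect was 1.23 ± 0.20 (edgeR adjusted p = 0.0127) and its combination over DMSO 1.61 ± 0.29 (edgeR adjusted p = 0.0412). The row of Sp140 itself, which reads the other strand, had 4 to 9 counts. Sp140 lies in a cluster of related genes, and fragments shared between near-identical copies were not examined. Gm10552 shares bases with its host exon, so this pair is of another kind than the wholly intronic pairs counted next. Over 107 pairs of a wholly intronic row and an exon row of its host, 52 changed in the same direction for the main effect (Spearman rho 0.34). For EZM8266 over DMSO 62 did (rho 0.32), and for the combination over DMSO 61 did (rho 0.29). The pairs share hosts and libraries.

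The second called row lies in Cyfip2, a subunit of the WAVE complex that drives branched actin assembly. Fndc9, a fibronectin type III domain gene, is nested in gap 25 of 32 between the merged exons of Cyfip2 (chr11:46235531-46239872, plus strand) with 2290 exon bases and none shared. Its row had 5 and 9 counts with DMSO, 3 and 6 with olaparib, 13 and 16 for EZM8266, and 20 and 19 for the combination. The 4 libraries with EZM8266 lay above the 4 without, at 16.1 ± 4.53 against 4.39 ± 1.49 CPM (SD, n = 4 each). The main effect was 1.84 ± 0.38 (SE; edgeR adjusted p = 0.0472). No 2-group comparison passed, with 1.85 ± 0.50 for the combination over DMSO (edgeR adjusted p = 0.335) and 2.43 ± 0.54 over olaparib (0.222).

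This call rests on 3 to 20 counts a library. It was lost with DESeq2 (adjusted p = 0.0946), with a block for the replicate number (edgeR adjusted p = 0.0526), and without any 1 library other than EZM8266 replicate 1 (0.101 to 0.248). Cyfip2's own row had 0 or 1 counts in each library. Whether the counts of the Fndc9 row read Cyfip2 introns or the Fndc9 gene cannot be told apart here.

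**Figure D5:**
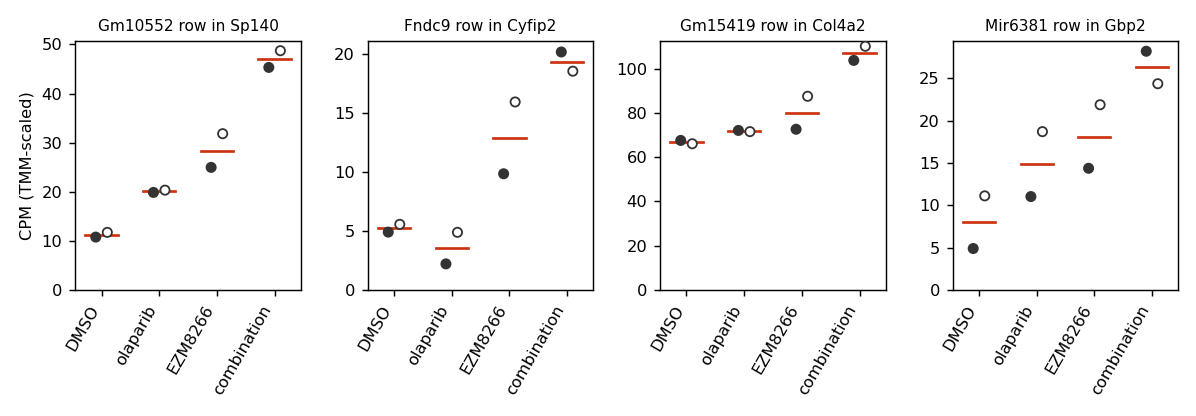
CPM by library for 4 rows (Gm10552 in Sp140, Fndc9 in Cyfip2, Gm15419 in Col4a2 and Mir6381 in Gbp2) by group, with filled points for replicate 1, open points for replicate 2 and a red line at the mean of 2. In each panel the combination libraries lie above the DMSO libraries, and only Gm10552 passed the test for that comparison.

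Other rows had groups that did not overlap without passing the test. The Gm15419 row in Col4a2 had 69 and 107 counts with DMSO, 98 and 88 with olaparib, 96 and 88 for EZM8266, and 103 and 113 for the combination. In CPM the combination libraries were the highest (107 ± 4.52 against 66.8 ± 1.06 with DMSO, SD, n = 2 each), a log2 fold change of 0.68 ± 0.17 (edgeR adjusted p = 0.278). Col4a2's own row, which reads the strand of Gm15419, had 11 to 44 counts. The Mir6381 row in Gbp2 had 5 and 18 counts with DMSO, 15 and 23 with olaparib, 19 and 22 for EZM8266, and 28 and 25 with the combination, with 1.62 ± 0.46 for the combination over DMSO (edgeR adjusted p = 0.386). The libraries of the combination were again the highest. Gm17153 in Gm9732, below the level set for named rows and named after its values were seen, had 1 and 1, 6 and 2, 6 and 4, and 11 and 11 counts in the same order.

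Rows lower with EZM8266 included Angpt2, an angiopoietin gene nested in Mcph1, the microcephalin gene of DNA damage signalling. Its row had 40 and 48 counts with DMSO, 40 and 37 with olaparib, 23 and 25 for EZM8266, and 15 and 23 for the combination. The 4 libraries with EZM8266 were below the 4 without in CPM (19.9 ± 4.48 against 32.1 ± 4.74, SD, n = 4 each), with a main effect of -0.68 ± 0.23 that did not pass (edgeR adjusted p = 0.43). The Gm46432 row in Tmem161b gave -0.61 ± 0.21 (edgeR adjusted p = 0.446) and the H2-T24 row in A930015D03Rik -0.25 ± 0.10 (0.625). The counts of H2-T24, an MHC class I gene with near copies, are uncertain for that reason. Its row is the wholly intronic row with the highest level after Gm23935 and had 345 and 433 counts with DMSO, 364 and 387 with olaparib, 306 and 251 for EZM8266, and 254 and 266 with the combination. The H2-T22 row, which shares 1003 bases with exons of A930015D03Rik, had 3 to 13 counts a library. Per kb these rows had 125 CPM for H2-T24 and 1.73 for H2-T22, and the source of the H2-T24 counts was not tested.

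With olaparib alone the lowest unadjusted p-values among higher rows belonged to Tmprss9 over Timm13, 4931440J10Rik over Ints6 and Gm10552. The 4931440J10Rik row, which lies partly inside Ints6 (a subunit of the Integrator complex that ends transcription of small nuclear RNAs), had 48 and 66 counts with DMSO, 81 and 87 with olaparib, 52 and 54 for EZM8266, and 35 and 39 for the combination. Olaparib libraries were the highest and combination libraries the lowest. The log2 fold change was 0.58 ± 0.23 for olaparib over DMSO (edgeR adjusted p = 0.999) and -0.83 ± 0.24 for the combination over olaparib (0.615). The 5031434C07Rik row in the first intron of Lmcd1, a LIM domain cofactor, went the other way in value, at -0.51 ± 0.24 with olaparib over DMSO (edgeR adjusted p = 0.999) and 0.91 ± 0.24 for the combination over olaparib (0.425). Neither row passed in any comparison.

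Hosts were also read by pathway. In the list of 45 type I interferon response genes, 2 hosts hold a row of the set, and 1 of the 2 rows rose in the main effect and for the combination over DMSO (Gm10552 in Sp140). The other, Phrf1 at the end of Irf7, the interferon regulatory factor 7 gene, gave -0.92 ± 0.37 for the main effect (edgeR adjusted p = 0.61). The median of the 2 was 0.17 beside -0.02 over all rows. Of 5 rows in H3K9 and heterochromatin genes, 4 were tested and 0 passed in any comparison by edgeR or DESeq2, with 0 at an unadjusted p under 0.05 by edgeR. The highest of them, Slc48a1 over Hdac7 (a class IIa histone deacetylase), gave 0.02 ± 0.20 for the main effect and Gm37048 in Hdac4 gave 0.34 ± 0.42. The list of DNA repair and PARP genes has 7 rows, 2 of them tested and 0 called, at -0.01 ± 0.19 for Rrp9 at Parp3 and -0.13 ± 0.25 for Fbxo11 over Msh6.

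The 5 remaining lists gave 0 called rows by edgeR in the main effect, and none of their rows was called in any other comparison. Matrix and adhesion hosts had 4 tested rows (1 above 0 and 3 below, median -0.29, 1 at an unadjusted p under 0.05). Actin and motility hosts had 7 of 16 rows tested (5 above 0, median 0.05, 0 at an unadjusted p under 0.05). The 16 rows of growth factor and kinase hosts lie in 8 genes, and 11 rows were tested. Evi2, Evi2a, Omg and AU040972 among these all lie in Nf1, so the tested rows are not independent. Below 0 were 10 of the 11, beside 383 of all 697 tested rows of the set, with a median of -0.11. At an unadjusted p under 0.05 there was 1. That row was Egfros in gap 2 of Egfr, the epidermal growth factor receptor, with 31 and 25 counts for DMSO, 17 and 34 for olaparib, 6 and 14 for EZM8266, and 7 and 16 for the combination. The 4 lowest counts were those with EZM8266, but in CPM the groups overlapped, and the main effect of -1.06 ± 0.42 did not pass (edgeR adjusted p = 0.61).

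Among transcription factor hosts 10 of 18 rows were tested, with a median of -0.06, and among RNA processing hosts 6 of 10, with a median of -0.17, each with 0 at an unadjusted p under 0.05 by edgeR. The median over all tested rows was -0.02. DESeq2 called 0 rows of these 5 lists for the main effect, since the 1 row it called there was Gm10552. Ttc19 at Ncor1, a nuclear corepressor, had the highest mean of the transcription factor list at 152.25 counts and a main effect of 0.15 ± 0.11. The 1700109K24Rik row in Rbfox2, a splicing regulator, had 68 and 86 counts with DMSO, 85 and 92 with olaparib, 62 and 68 for EZM8266, and 43 and 67 with the combination (main effect -0.20 ± 0.18). Combination replicate 1 was the lowest library and the groups with and without EZM8266 overlapped in CPM.

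At the limits of the rule, 9630013K17Rik in Cox10 and Akap14 in Nkap were taken with 49 shared bases and mean counts of 38.125 and 8.5. Arpc1a over Kpna7 and Bop1 over Mroh1 were not, with 50 shared bases and mean counts of 6.75 and 76.5. At the other limit, 1700085D07Rik in Ptk2 and 4933424L21Rik in Galnt10 were taken at a mean count of 5, while A730090N16Rik in Kcnab1 and Akirin1-ps in Appbp2 fell outside it at 4.875. Of the 1035 rows, 43 lie in at least 2 hosts and 66 share exon bases with another row on their own strand.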

How the data were processed

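RNA-seq was measured in 8 libraries of olaparib-resistant ID8 cells, 2 per treatment group. The values deposited by the authors are raw counts, in whole numbers, for each gene. Exons of GENCODE M18 genes were counted in pairs by featureCounts with strand setting 1, per the file headers, which also let a fragment count for each gene it overlapped, and the alignments are named as unique. Per the submitters' processing notes, HISAT2 2.1.0, Subread 1.6.2, FastQC 0.11.8, MultiQC 1.7 and build mm10 were used. In the deposited summary, counts of assigned and unassigned fragments give the assigned percent. All sample columns were used. The labels call the libraries treatment or transfection replicates without stating separate cultures, and the p-values then cover only how far these libraries differ, perhaps for technical reasons. Replicates differed by more than sampling noise (chi-square per degree of freedom 7.10 to 21.5).

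Rows were placed by the exon coordinates of the table. Symbols came from GENCODE M21, which named all 1035 rows, and sequences from its transcripts. Tests used edgeR 4.0.16 in R 4.3.3 (quasi-likelihood F test, TMM, filterByExpr with minimum count 10 and minimum total 15, 1 fit of 4 group means over 6379 rows, Benjamini-Hochberg adjustment). CPM are counts per 1000000 of the TMM-scaled library. Shares were compared with exact permutation tests. Scripts were tested on simulated data. Named rows are those called, the 10 highest by CPM and by CPM per kb, up to 5 per direction and comparison by unadjusted p with groups apart and at least 10 CPM, the 5 hosts with most rows, up to 4 rows per list and 2 on each side of a limit. Psd, Srrm2, Gm43980, Gm17153 and the pairs of hosts were named after their values were seen. The rows, lists and rules were chosen with earlier results of these data known. Alternatives were DESeq2 1.42.0, RLE scaling, other filters, a replicate block, left-out libraries and stricter row rules.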

Additional observations from a re-analysis of the deposited data

How the results depend on the processing

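Over 60 named log2 fold changes and 950 alternative fits, 929 kept direction and side of the threshold, 20 fell short of it, 1 newly passed and 0 reversed. All 20 were fits of the called values, namely Gm10552 for the main effect and the combination over DMSO, and Fndc9 for the main effect. The other named values had not passed at the start, so the 929 says little about how stable the calls are. Without a filter on low counts, calls numbered 5 for the main effect, 4 and 3 for the combination against DMSO and olaparib, and 2 with EZM8266 over DMSO. Fitting only the groups compared gave 2 for the combination against DMSO. Leaving out 1 library gave 0 to 1 calls in the comparison of the combination with DMSO (0 without either DMSO or either combination library) and 0 to 3 for the main effect (0 without DMSO replicate 1 or either olaparib library). Without DMSO replicate 1 and olaparib replicate 2 together, an alternative chosen after seeing the data, both counts were 0, and the share and the ratio differed by 0.345 and 0.408 (exact permutation p = 0.267 each). Requiring no shared base left 1 call in the main effect and 0 in the other, since Gm10552 shares 4 bases. DESeq2 gave 1 for the main effect.

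The difference in the share of counts with EZM8266 turned to -0.0284 points without olaparib replicate 1 and to -0.0108 with no shared base. The ratio turned to -0.104 without olaparib replicate 1, -0.00756 without combination replicate 2, -0.0327 with no shared base and -0.0597 without the 10 most abundant rows and those high in DMSO replicate 1 and olaparib replicate 2. These differences did not pass the test in any of these settings, and the cause was not tested. The replicate block gave 1 called row for the main effect. Deviations of same-numbered libraries correlated at -0.305 to -0.143 for DMSO with the other groups and at 0.212 to 0.287 among those, so the numbers are not shown to pair the libraries. The median SE over the 697 tested rows was 0.46 to 0.49 on the log2 scale in comparisons of 2 libraries, and the 338 rows below the filter on low counts were not tested.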
